A study of Homo sapiens with 6 samples.

Results

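Ubiquitin-conjugating (E2) enzymes were described in the human bladder carcinoma line T24 after depletion of TRAIP, a RING-type E3 ubiquitin ligase. The E2 genes were taken as every row of the deposited gene table whose symbol is UBE2, a letter and at most 1 further digit, which gave 35 of 33542 genes. Of these, 32 had enough counts to be tested. The remaining genes stayed near 0, with at most 2 counts in any library for UBE2U and UBE2L2 and at most 4 for UBE2L4. UBE2L2 and UBE2L4 are annotated as processed pseudogenes.

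E2 enzymes stand in the middle of the ubiquitin cascade. An E1 enzyme activates ubiquitin and passes it to a cysteine of an E2, and an E3 ligase brings the charged E2 to the protein to be marked. The E2 often decides which lysine of ubiquitin is used to build a chain, and with it whether the marked protein is degraded by the proteasome or takes part in signalling or DNA repair. A few E2s carry other modifiers, such as NEDD8 or ISG15. UBE2C, UBE2S and UBE2T are the members best known for roles in the cell cycle: UBE2C starts and UBE2S extends the chains made by the anaphase-promoting complex, and UBE2T attaches ubiquitin to FANCD2 during repair of DNA crosslinks.

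RNA sequencing compared 3 libraries of T24 cells transfected with a control small interfering RNA (siNC) and 3 transfected with an interfering RNA against TRAIP (siTRAIP), both delivered by Lipofectamine transfection in the same medium. The series asks what lies downstream of TRAIP in bladder cancer cells. The labels name 1 cell line and give all siTRAIP libraries the same siRNA label, so loss of TRAIP and any other effect of that reagent cannot be told apart. Nothing in the labels says that the replicates came from separate cultures, so p-values measure the spread between these libraries, which may be technical.

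TRAIP stood at 26.6, 28.3 and 28.4 CPM (counts scaled to a common library total) in siNC and at 12.5, 14.7 and 11.6 CPM in siTRAIP, or -1.11 ± 0.07 (SE) on the log2 scale (adjusted p = 6.74e-10 by edgeR). Total counts ran from 39111793 to 70439496 per library, and siTRAIP replicate 3 was the deepest and differed most from the other libraries of its group. Among the urothelial markers PPARG was well expressed (18.36 CPM in siNC), UPK2 stood at 0.893 CPM, and UPK1A, UPK3A and KRT5 were below 0.1 CPM in both group means. The keratins KRT7, KRT8 and KRT18 stood at 1308.0, 1686.0 and 496.9 CPM in siNC, and KRT7 fell to 1152.0 CPM in siTRAIP (log2 fold change -0.18, adjusted p = 0.00375 by edgeR). The epithelial adhesion genes EPCAM and CDH1 were low, at 1.295 and 0.01117 CPM in siNC. Fibroblast markers summed to 5.18 CPM in siTRAIP replicate 3, where COL1A1 stood at 4.26 CPM, and to 1.08 to 1.39 CPM in the other libraries. Endothelial markers summed to at most 0.211 CPM. The pan-leukocyte marker PTPRC stood below 0.1 CPM in both group means, while CD68 rose from 34.88 to 43.34 CPM (adjusted p = 0.000917 by edgeR).

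Of the 32 tested E2 genes, 10 (31.2%) passed an edgeR adjusted p of 0.05, which is the threshold for every call below. UBE2Q1, UBE2D3, UBE2S, UBE2Z, UBE2E1, UBE2V2 and UBE2N fell, and UBE2O, UBE2Q2 and UBE2K rose. Across all 18685 genes tested the called share was 12.8%. Called shares were higher among well expressed genes: of the 8664 tested genes with a mean of at least 10 CPM, 22.3% were called, against 10 of 29 E2 genes (34.5%) at that level. Falls made up 7 of 32 E2 genes, or 21.9%, where 5.34% of all tested genes and 9.11% of those with at least 10 CPM fell. Rises made up 3 of 32, or 9.38%, where 7.47% of all tested genes and 13.2% of those with at least 10 CPM rose. The changes were small. The 32 log2 fold changes ran from -0.41 to 0.18, 22 were negative, and their median was -0.08, where the median of all tested genes was -0.00. The 6 libraries separated by group, with no overlap in CPM, for 15 E2 genes, 11 of them lower in siTRAIP. Groups did not overlap for 29.1% of all tested genes, and for 41.4% of those with at least 10 CPM against 14 of 29 E2 genes. Genes without overlap and lower in siTRAIP numbered 2682 of all 18685 tested. At 10 CPM or more they numbered 1683 of 8664, against 10 of 29 E2 genes.

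The split between rises and falls depended on the scaling of the libraries. CPM values here are scaled by TMM factors (1.011 to 1.029 in siNC, 0.9714 to 0.9874 in siTRAIP), and without them the median of all genes moved to -0.06 and the E2 genes gave 0 rises and 10 falls. Falls became more frequent in all genes too. Without TMM factors 838 of the 18685 genes tested rose and 2050 fell. Of the 8664 with at least 10 CPM, 668 rose and 1625 fell, against 0 and 10 of 29 E2 genes. In that fit UBE2K, UBE2O and UBE2Q2 were no longer called, and UBE2B, UBE2G2 and UBE2V1 were called lower. Single libraries also moved the counts: E2 rises numbered 1 without siNC replicate 1 and 0 without siNC replicate 2, and E2 falls numbered 4 without siNC replicate 2. The falls of UBE2Q1, UBE2D3 and UBE2Z were called in the main fit and in all 15 alternative fits.

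**Figure D1:**
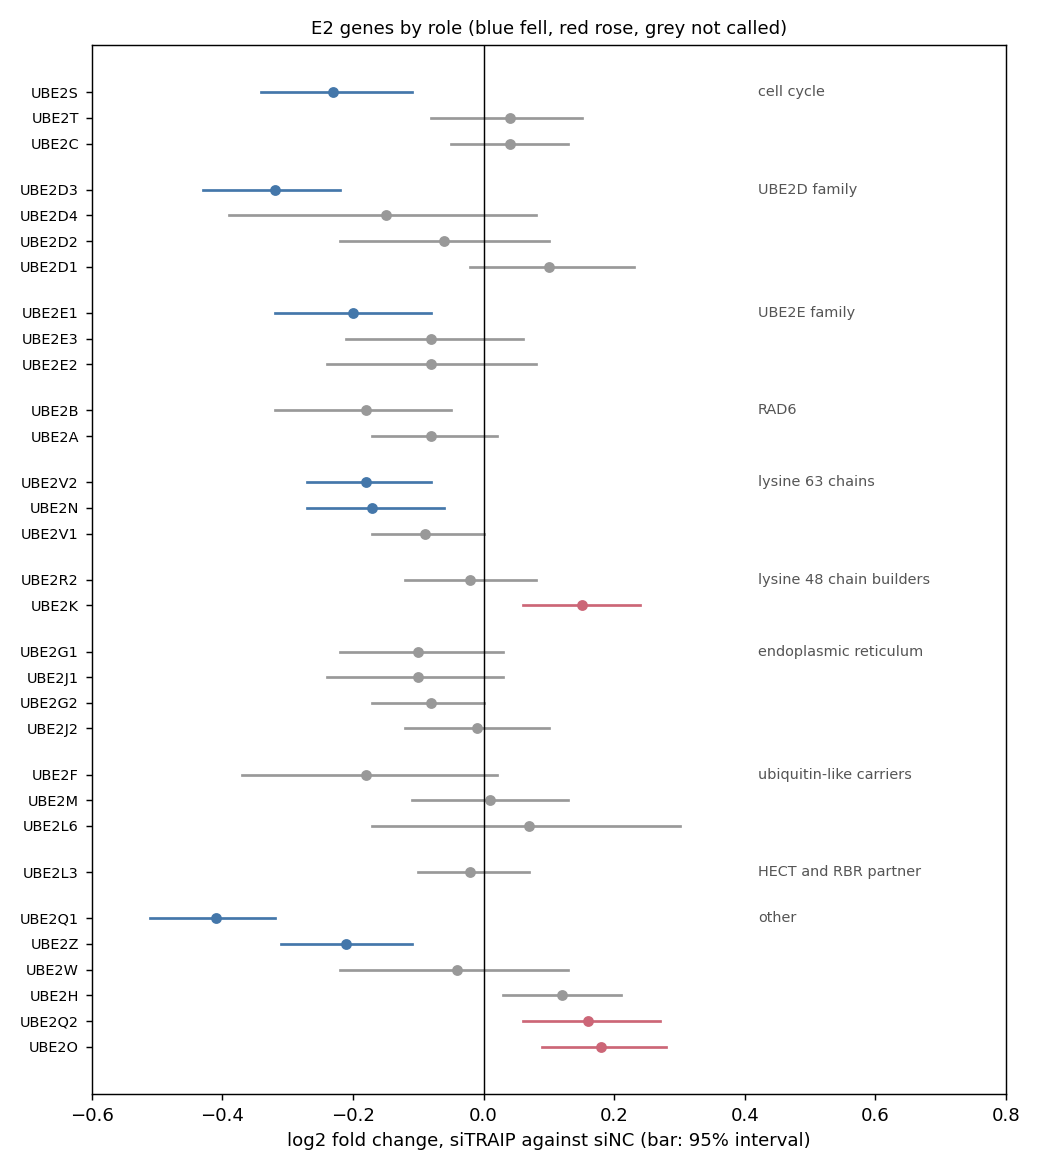
Log2 fold change of siTRAIP against siNC for the tested E2 genes reported here, grouped by role, with bars for the 95% interval. The 7 genes in blue fell and the 3 in red rose, the largest fall is that of UBE2Q1 at -0.41, and UBE2C and UBE2T lie near 0 while UBE2S lies to the left.

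Among the cell-cycle E2s, 1 of 3 changed: UBE2S fell, and UBE2C and UBE2T did not pass the test. UBE2S (chromosome 19, 55399745 to 55407777, minus strand, GRCh38) elongates K11-linked chains on substrates of the anaphase-promoting complex. It stood at 52.6, 49.0 and 56.8 CPM in siNC and at 43.2, 46.2 and 46.0 CPM in siTRAIP. The groups did not overlap, although the lowest siNC library lay close to the siTRAIP libraries. In bulk RNA, fewer cells at a given stage and less transcript per cell cannot be told apart. On the log2 scale the change was -0.23 (SE 0.05, 95% interval -0.34 to -0.11, adjusted p = 0.00609 by edgeR), and without siNC replicate 3 it was -0.17 and no longer passed (adjusted p = 0.0638). Annotated pseudogenes number 2 for UBE2S and 4 for UBE2C.

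UBE2C (chromosome 20, 45812576 to 45816957, plus strand), which places the first ubiquitins on mitotic substrates, stood at 58.3, 59.8 and 61.2 CPM in siNC and at 61.0, 62.8 and 60.6 CPM in siTRAIP. UBE2T (chromosome 1, 202331657 to 202341980, minus strand), the E2 of the Fanconi anaemia ligase FANCL, stood at 29.8, 31.2 and 33.4 CPM in siNC and at 32, 31.8 and 32.9 CPM in siTRAIP. The libraries of both genes overlapped between groups. Their log2 fold changes were 0.04 (95% interval -0.05 to 0.13, edgeR adjusted p = 0.649) for UBE2C and 0.04 (95% interval -0.08 to 0.15, edgeR adjusted p = 0.757) for UBE2T, and neither interval reached beyond 0.15 in size. Both turned to -0.02 without TMM factors.

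Set against each other within a library, the transcripts of UBE2S and UBE2C gave log2 CPM ratios of -0.15, -0.29 and -0.11 in siNC and of -0.50, -0.44 and -0.40 in siTRAIP. The ratio of UBE2S to UBE2T was 0.82, 0.65 and 0.77 in siNC and 0.43, 0.54 and 0.48 in siTRAIP. Both ratios were lower in every siTRAIP library than in any siNC library, with a difference of -0.26 in each case, and scaling of the libraries cancels in them. Since genes differ in length, only the change of such a ratio between groups is read, not its size. The ratio of UBE2C to UBE2T was 0.97, 0.94 and 0.87 in siNC and 0.93, 0.98 and 0.88 in siTRAIP, a difference of 0.00. An exact 2-sided permutation test over the libraries gave p = 0.1 for each ratio with UBE2S and p = 0.9 for the ratio without it (0.15, 0.15 and 0.9 after Benjamini-Hochberg adjustment over the 3 pairs). With 3 libraries against 3, 0.1 is the smallest p this test can give. UBE2S had already been called in these same libraries, so its ratios are a description and add no separate support.

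**Figure D2:**
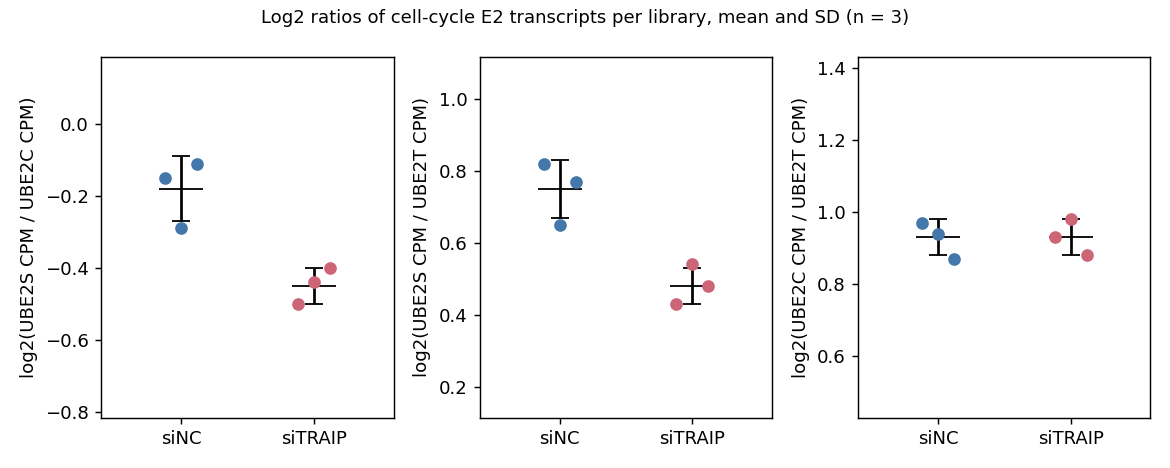
Log2 ratio of the CPM of 2 cell-cycle E2 transcripts in each library (points), with the mean and SD of each group (n = 3). The ratios of UBE2S to UBE2C and to UBE2T lie lower in all 3 siTRAIP libraries, with means of -0.18 and -0.45 and of 0.75 and 0.48 in siNC and siTRAIP, and the ratio of UBE2C to UBE2T averages 0.93 in both groups.

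Compared with the rest of the family, the cell-cycle members had a median log2 fold change of 0.04 (1 of 3 called), and the other 29 tested members had a median of -0.08 (9 of 29 called, 3 rises and 6 falls). The fits gave no rise among the cell-cycle E2s, in edgeR or in DESeq2, and 1 of them had an unadjusted p under 0.05. Measured per length, as RPKM (reads per kilobase of gene length, per library total), UBE2C, UBE2S and UBE2T together made up 20.9%, 20.9% and 21.9% of the summed E2 level in the siNC libraries and 21.7%, 22.2% and 21.3% in the siTRAIP libraries. Those shares overlapped. The summed RPKM of all E2 genes was 452.4, 451.1 and 466.8 in siNC and 416.6, 423.0 and 434.5 in siTRAIP, lower in every siTRAIP library. RPKM carries no TMM factor. On the TMM-scaled CPM scale the E2 sum was 1888.0, 1901.0 and 1913.0 in siNC and 1806.0, 1800.0 and 1867.0 in siTRAIP, again without overlap.

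The cell-cycle members were among the highest E2 transcripts per length. UBE2C ranked first at 47.43 ± 1.35 RPKM in siNC (SD, n = 3), within its spread of UBE2V1 at 47.2 ± 1.34 RPKM. UBE2T ranked 5 at 30.16 ± 1.85 RPKM, not separated from UBE2K at 31.34 ± 1.21 RPKM. UBE2S ranked 7 at 19.33 ± 1.58 RPKM, next to UBE2M at 18.93 ± 0.922 RPKM. In siTRAIP, UBE2S stood at 15.85 ± 0.709 RPKM, below UBE2M at 18.22 ± 1.5 RPKM and UBE2H at 17.09 ± 0.413 RPKM. The lowest tested members were UBE2D4, UBE2W, UBE2F and UBE2L6, at 0.981, 1.205, 1.70 and 1.743 RPKM in siNC.

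**Figure D3:**
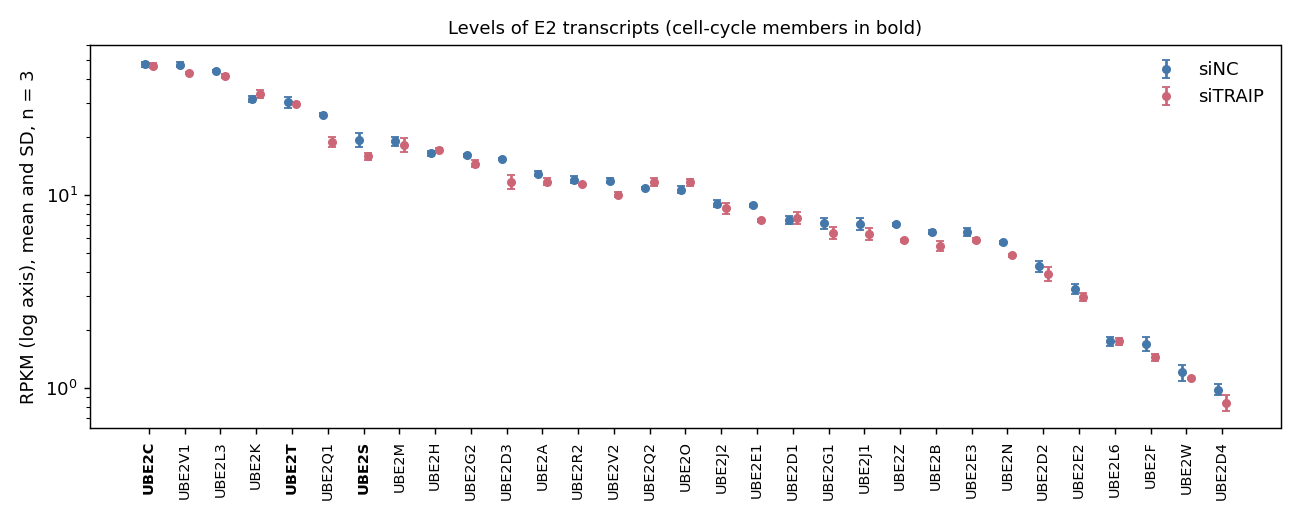
RPKM (log axis) of the tested E2 transcripts reported here, in siNC (blue) and siTRAIP (red), as mean and SD of 3 libraries, ordered by the siNC mean. Levels run from 47.43 RPKM for UBE2C to 0.981 RPKM for UBE2D4, and the widest gaps between the groups are at UBE2Q1 (26.09 and 18.77 RPKM) and UBE2D3 (15.29 and 11.72 RPKM).

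The promoters of UBE2T and UBE2S are shown as those of the cell-cycle members with an entry in the table, of which UBE2S was called and UBE2T was not. They are RefSeq windows on GRCh38.p14, 250 bases before to 50 after the annotated start, with capitals for 2 elements known from cell-cycle promoters: the cell cycle genes homology region (CHR, searched as TTTGAA or TTCGAA) and the CCAAT box (searched as CCAAT), each on both strands and without overlap between them.
UBE2T, chr1:202341887-202342186, minus strand: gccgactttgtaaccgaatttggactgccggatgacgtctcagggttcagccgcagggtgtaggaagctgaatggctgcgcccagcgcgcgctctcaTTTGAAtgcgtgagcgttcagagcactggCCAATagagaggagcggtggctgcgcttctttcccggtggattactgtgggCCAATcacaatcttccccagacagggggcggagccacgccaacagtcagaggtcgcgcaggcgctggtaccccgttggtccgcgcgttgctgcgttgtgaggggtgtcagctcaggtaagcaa
UBE2S, chr19:55407739-55408038, minus strand: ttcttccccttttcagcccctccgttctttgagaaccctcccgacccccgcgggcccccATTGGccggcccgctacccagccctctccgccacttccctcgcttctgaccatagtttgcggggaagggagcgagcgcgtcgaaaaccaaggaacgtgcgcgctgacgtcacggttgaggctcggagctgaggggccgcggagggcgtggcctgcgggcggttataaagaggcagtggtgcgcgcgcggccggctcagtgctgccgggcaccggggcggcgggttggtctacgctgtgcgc
The UBE2T window held 1 CHR word, 153 bases before the start, and 2 CCAAT words. The UBE2S window held 1 CCAAT word, on the other strand, and no CHR word. CHR words were found in 16.4% of 35116 promoter windows and in 3 of the 38 windows of E2 genes, and CCAAT words in 34.6% and in 11 of 38. These matches describe letters, not binding. UBE2C has no entry in the table.

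The largest change in the family was a fall of UBE2Q1 (chromosome 1, 154548577 to 154559028, minus strand), a large E2 with an extended amino-terminal region. It stood at 104.0, 109.0 and 106.0 CPM in siNC and at 77.2, 77.0 and 85.3 CPM in siTRAIP. Every siTRAIP library lay well below every siNC library. On the log2 scale the change was -0.41 (SE 0.05, 95% interval -0.51 to -0.32, adjusted p = 1.4e-06 by edgeR), a fold of 0.751. Its antisense neighbour UBE2Q1-AS1, which shares 51 exonic bases (1.23% of UBE2Q1) on the opposite strand, had a log2 fold change of -0.32 (adjusted p = 0.000368 by edgeR) at a mean of 44.2 CPM. Whether reads were counted by strand is not given in the sources used here.

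Its paralog UBE2Q2 (chromosome 15, 75843285 to 75901078, plus strand) went the other way, from 40.3, 41.3 and 41.4 CPM in siNC to 48.3, 43.6 and 45.9 CPM in siTRAIP. The groups did not overlap. The log2 fold change of 0.16 (SE 0.05, adjusted p = 0.0309 by edgeR) was lost in 8 of 15 alternative fits, those without siNC replicate 1, 2 or 3 or siTRAIP replicate 1 (adjusted p of 0.0786 to 0.157) among them, and 8 pseudogenes of UBE2Q2 are annotated. The log2 ratio of UBE2Q1 to UBE2Q2 was 1.37, 1.40 and 1.36 in siNC and 0.68, 0.82 and 0.89 in siTRAIP, a difference of -0.58 that is given as a description because both genes had been called.

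The UBE2D family supplies ubiquitin to a wide range of RING and HECT ligases, and its 4 members are close in sequence. UBE2D3 (chromosome 4, 102794383 to 102868896, minus strand) was the called member. It stood at 150.0, 155.0 and 148.0 CPM in siNC and at 115.0, 115.0 and 132.0 CPM in siTRAIP. The groups did not overlap, with siTRAIP replicate 3 the highest of its group. On the log2 scale the change was -0.32 (SE 0.05, 95% interval -0.43 to -0.22, adjusted p = 8.98e-05 by edgeR), and 4 pseudogenes of UBE2D3 are annotated. UBE2D1, UBE2D2 and UBE2D4 had log2 fold changes of 0.10, -0.06 and -0.15 (edgeR adjusted p = 0.324, 0.681 and 0.439). Per length, UBE2D3 stood at 15.29 RPKM in siNC, UBE2D1 at 7.42 RPKM, UBE2D2 at 4.265 RPKM and UBE2D4 at 0.981 RPKM. The log2 CPM ratio of UBE2D3 to UBE2D1 went from a mean of 2.57 ± 0.09 in siNC to 2.15 ± 0.02 in siTRAIP (SD, n = 3), with no overlap.

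In the related UBE2E family, whose members have an amino-terminal extension before the catalytic core, UBE2E1 (chromosome 3, 23805903 to 23891316, plus strand) fell. It stood at 26.1, 27.4 and 26.5 CPM in siNC and at 23.3, 23.5 and 22.9 CPM in siTRAIP, without overlap. On the log2 scale the change was -0.20 (SE 0.06, adjusted p = 0.0186 by edgeR), and it was -0.18 and not called without siNC replicate 2 (adjusted p = 0.0945). UBE2E2 and UBE2E3 both had log2 fold changes of -0.08 (edgeR adjusted p = 0.604 and 0.527).

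**Figure D4:**
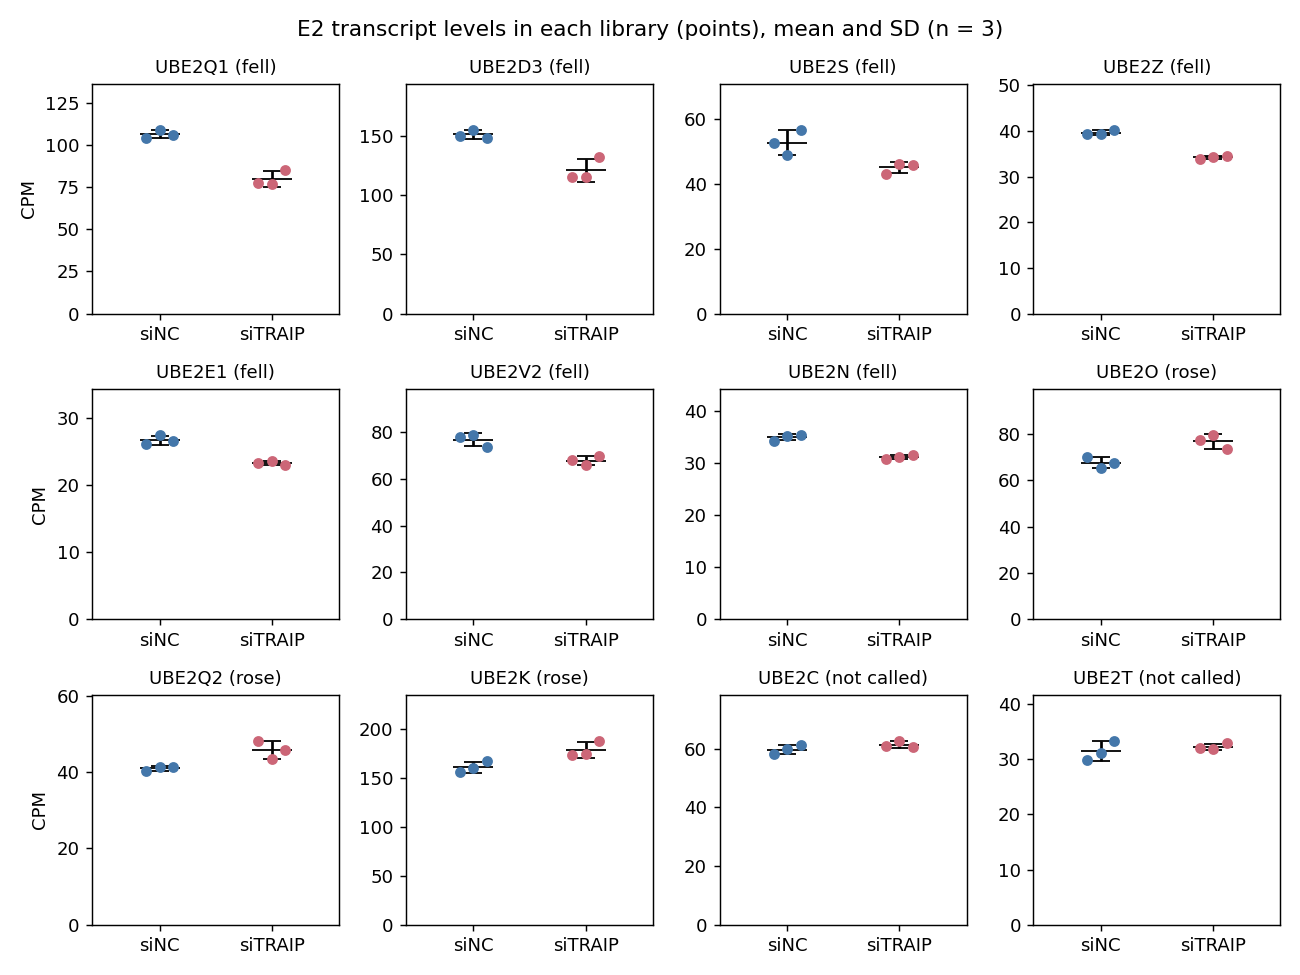
CPM in each library (points) with the mean and SD of each group (n = 3) for the 10 called E2 genes and for UBE2C and UBE2T, each axis starting at 0. The groups stand apart for all 10 called genes, from UBE2Q1 (means of 106.4 and 79.8 CPM) to UBE2K (161.1 and 178.5 CPM), and overlap for UBE2C and UBE2T.

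UBE2N with UBE2V1 or UBE2V2 makes K63-linked chains, which act in DNA damage tolerance and in NF-kappaB signalling rather than in degradation. UBE2V1 and UBE2V2 lack the catalytic cysteine and orient the acceptor ubiquitin. All 3 had lower CPM in every siTRAIP library than in any siNC library, and 2 of 3 were called. UBE2V2 (chromosome 8, 48008400 to 48064708, plus strand) stood at 77.7, 78.6 and 73.4 CPM in siNC and at 67.9, 65.7 and 69.7 CPM in siTRAIP (log2 fold change -0.18, SE 0.05, adjusted p = 0.0116 by edgeR). UBE2N (chromosome 12, 93405673 to 93442262, minus strand) stood at 34.3, 35.2 and 35.4 CPM in siNC and at 30.8, 31.1 and 31.5 CPM in siTRAIP (log2 fold change -0.17, SE 0.05, adjusted p = 0.0316 by edgeR). The log2 ratio of UBE2N to UBE2V2 was -1.13 ± 0.07 in siNC and -1.12 ± 0.04 in siTRAIP (SD, n = 3). UBE2V1 stood at 219.0, 221.0 and 228.0 CPM in siNC and at 209.0, 208.0 and 212.0 CPM in siTRAIP, and its log2 fold change of -0.09 did not pass (edgeR adjusted p = 0.182). The UBE2N call was lost when any library other than siTRAIP replicate 3 was left out, with adjusted p up to 0.105, and the UBE2V2 call without siNC replicate 1, siNC replicate 2 or siTRAIP replicate 2, with adjusted p up to 0.0743. Exons of NUDT4, transcribed the other way, cover 39.5% of the exonic bases of UBE2N (log2 fold change of NUDT4 0.05, adjusted p = 0.535 by edgeR), and the readthrough gene TMEM189-UBE2V1 covers 42.9% of those of UBE2V1, for which 15 pseudogenes are annotated, so counts of both E2 genes are uncertain.

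UBE2K and UBE2R2 build K48-linked chains, the usual signal for the proteasome and the chain type named in the series title. UBE2K (chromosome 4, 39698044 to 39782792, plus strand) stood at 156.0, 160.0 and 167.0 CPM in siNC and at 173.0, 174.0 and 188.0 CPM in siTRAIP. The groups did not overlap, and on the log2 scale the change was 0.15 (SE 0.04, 95% interval 0.06 to 0.24, adjusted p = 0.029 by edgeR). This call was lost in 6 of 15 alternative fits, among them those without siNC replicate 1 (0.12), siNC replicate 2 (0.14) and siTRAIP replicate 3 (0.11). UBE2R2 had a log2 fold change of -0.02 (adjusted p = 0.872 by edgeR). CDC34, the close relative of UBE2R2 that lies outside the name rule, fell from 34.5, 33.0 and 34.7 CPM to 28.7, 28.9 and 28.5 CPM, with no overlap (log2 fold change -0.25, SE 0.05, adjusted p = 0.00203 by edgeR). The 3 genes of this chain type thus gave 1 rise, 1 fall and 1 member that was not called.

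UBE2Z and UBE2O were called among the remaining members. UBE2Z (chromosome 17, 48908369 to 48929056, plus strand), which is charged by the E1 enzyme UBA6 rather than by UBA1, stood at 39.4, 39.3 and 40.3 CPM in siNC and at 33.9, 34.2 and 34.6 CPM in siTRAIP. The spread within each group was small against the gap (log2 fold change -0.21, SE 0.05, adjusted p = 0.00423 by edgeR). UBE2O (chromosome 17, 76389451 to 76453206, minus strand), a large enzyme with both E2 and E3 activity, stood at 70.0, 65.2 and 67.4 CPM in siNC and at 77.5, 79.5 and 73.3 CPM in siTRAIP. The groups did not overlap (log2 fold change 0.18, SE 0.05, adjusted p = 0.0102 by edgeR), and the call was lost in 5 of 15 alternative fits, among them those without siNC replicate 2 (0.15) and siTRAIP replicate 2 (0.16). UBE2H, which acts with the CTLH ligase, had a log2 fold change of 0.12 (adjusted p = 0.0759 by edgeR), and UBE2W, which modifies the amino terminus of proteins, had one of -0.04 (edgeR adjusted p = 0.814).

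No call was made in 4 further roles. UBE2A and UBE2B, the RAD6 enzymes that mark PCNA and histone H2B, had log2 fold changes of -0.08 and -0.18 (edgeR adjusted p = 0.346 and 0.0708). UBE2B stood at 20.7, 21.5 and 20.0 CPM in siNC and at 19.6, 17.2 and 18.1 CPM in siTRAIP, without overlap, and it passed in 4 of 15 alternative fits. The 4 enzymes of degradation at the endoplasmic reticulum, UBE2J1, UBE2J2, UBE2G1 and UBE2G2, had log2 fold changes of -0.10, -0.01, -0.10 and -0.08 (edgeR adjusted p = 0.327, 0.917, 0.348 and 0.227). Among the carriers of other modifiers, UBE2M and UBE2F for NEDD8 stood at 0.01 and -0.18, and UBE2L6 for ISG15 at 0.07 on the log2 scale (edgeR adjusted p = 0.951, 0.262 and 0.79). UBE2L3, which works with HECT and RBR ligases, had a log2 fold change of -0.02 (adjusted p = 0.853 by edgeR). At an unadjusted p under 0.05 edgeR gave 1 of the 2 RAD6 enzymes and 0 of the other 8, and DESeq2 called none of these 10 genes. Another gene shares 18.1% of the exonic bases of UBE2A and 16.2% of UBE2F, and POLR2J4 and a second gene share 15.5% and 11.6% of those of UBE2D4, so these counts are uncertain too.

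**Figure D5:**
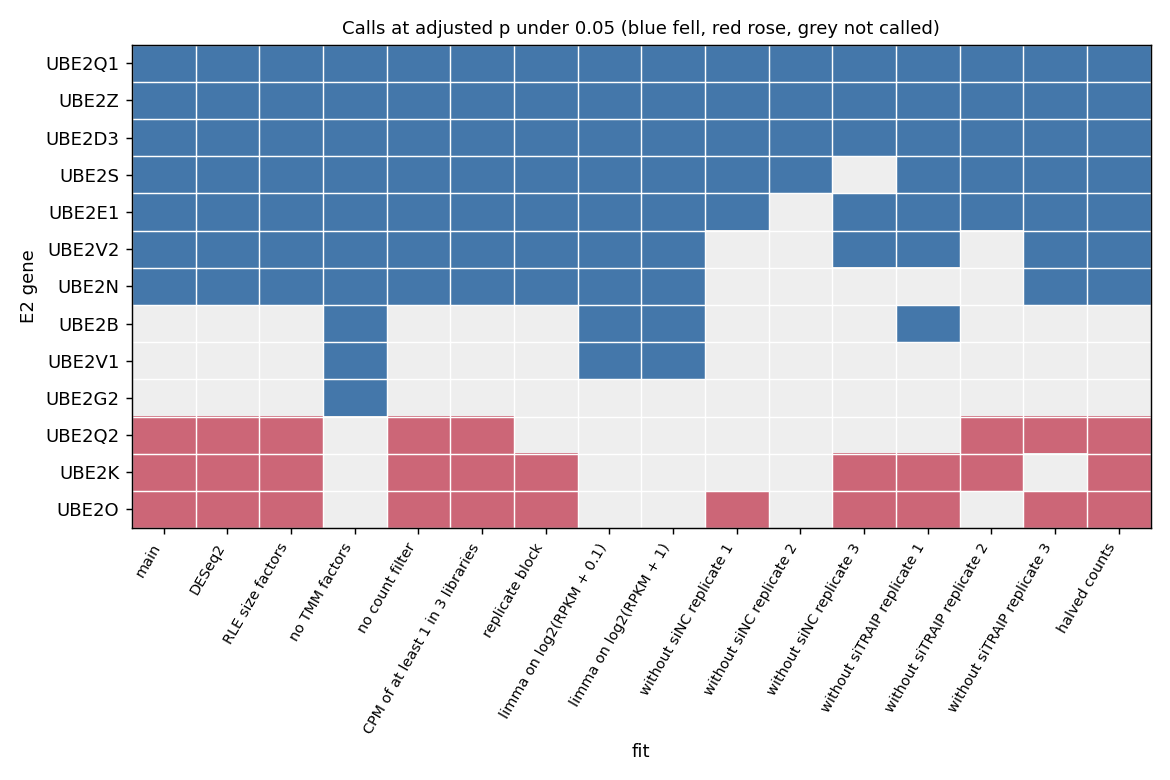
Calls at an adjusted p under 0.05 for the 13 E2 genes called in at least 1 fit (rows) in the main fit and 15 alternatives (columns), blue for a fall, red for a rise and grey for no call. The rows of UBE2Q1, UBE2Z and UBE2D3 are blue throughout, while the red calls of UBE2Q2, UBE2K and UBE2O are absent without TMM factors and with limma on RPKM.

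The series files were earlier searched for 7-base words that go with the fold changes, and ACAGTCT or CAGTCTA marked falls while TCGGAGA or CGGAGAA marked rises. The E2 genes were among those on which the words had been chosen, so their presence here is a description and supports nothing. ACAGTCT or CAGTCTA occurred on the sense strand in the coding sequence or 3' UTR of 26.5% of 12597 tested protein-coding genes and of 44.4% of those that fell. It occurred in 8 of 32 E2 genes (25.0%), 3 of the 7 that fell (UBE2Q1, UBE2N and UBE2V2), 1 of the 3 that rose (UBE2O) and 4 of the 22 not called (UBE2D1, UBE2D2, UBE2J1 and UBE2A). TCGGAGA or CGGAGAA occurred in 3 of 32 E2 genes (UBE2O, UBE2G1 and UBE2H), against 18.8% of all genes searched. As examples, the 25-base sites of UBE2Q1, UBE2N and UBE2O are shown, read from GENCODE v29 transcripts, with the word in capitals.
UBE2Q1, coding sequence: tcgtgaatgACAGTCTgtatgattg
UBE2Q1, coding sequence: aatctcaatACAGTCTgacaagagc
UBE2Q1, 3' UTR: gatggggacACAGTCTccaagtgtg
UBE2N, 3' UTR: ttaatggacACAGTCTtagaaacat
UBE2O, coding sequence: cggtgtggtACAGTCTggggaccac
UBE2O, coding sequence: gaccagactTCGGAGAccgcaccag
UBE2O, coding sequence: ccaaagaagCGGAGAAagagctacc
UBE2Q1, with the largest fall, held 3 sites, and UBE2O, which rose, held words of both kinds. UBE2D3, with the second largest fall, held neither in the transcript with the longest coding sequence, whose 3' UTR is 61 bases long, but 6 of its 19 coding transcripts held ACAGTCT or CAGTCTA. UBE2S, UBE2C and UBE2T held neither word in any coding transcript searched.

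Other genes of the cascade were read from lists. Their counts in the main fit, and those of the cell-cycle lists below, stand against the 7.47% of all tested genes that rose and the 5.34% that fell. Among tested genes with a mean of at least 10 CPM, 13.2% rose and 9.11% fell. Counts given without TMM factors stand against the 838 rises and 2050 falls among 18685 genes in that fit. Of the 8664 genes with at least 10 CPM, 668 rose and 1625 fell without TMM factors. Among genes for ubiquitin and its relatives, NEDD8 rose (log2 fold change 0.20, edgeR adjusted p = 0.00415). None of the 10 genes for E1 activating enzymes was called by edgeR, 2 of them had an unadjusted p under 0.05, DESeq2 called 1 higher, and edgeR without TMM factors called 1 lower. Of 7 tested E2 genes outside the name rule, ATG3, the E2 of autophagy lipidation, rose (0.16, edgeR adjusted p = 0.0181) beside the fall of CDC34. Without TMM factors NEDD8 kept its call and ATG3 lost its call.

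The ligase that works with UBE2C and UBE2S is the anaphase-promoting complex. Of 17 genes for its subunits and regulators, the subunit genes ANAPC7, CDC26 and ANAPC13 rose (log2 fold change 0.14, 0.16 and 0.18), and the activator CDC20 fell. CDC20 stood at 56.9, 58.0 and 58.4 CPM in siNC and at 49.7, 50.9 and 49.4 CPM in siTRAIP, without overlap (log2 fold change -0.21, edgeR adjusted p = 0.00267). Without TMM factors this list gave 0 rises and 4 falls, CDC20 among them. Beside UBE2S and CDC20, the mitotic kinase gene PLK1 fell (153.0, 145.0 and 150.0 CPM in siNC, 122.0, 129.0 and 130 CPM in siTRAIP, log2 fold change -0.23, edgeR adjusted p = 0.000541). It was the single fall among 25 mitotic genes, of which 9 rose, led by BUB1B (0.32), BIRC5 (0.26), CENPF (0.26) and NUSAP1 (0.20). Without TMM factors the mitotic list gave 5 rises and 2 falls. Of 20 S phase genes 12 rose, with RRM2, RRM1, MCM6 and MCM3 at 0.33, 0.36, 0.32 and 0.32, and none fell by edgeR or DESeq2. Without TMM factors that list gave 7 rises and 1 fall. The part of cell-cycle stage in the E2 values was not tested.

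Of 12 genes of the FANCD2 pathway that UBE2T serves, FANCI, FANCE and USP1 rose (log2 fold change 0.15, 0.24 and 0.16, edgeR adjusted p = 0.0173, 0.0382 and 0.024), and FANCL and FANCD2 had log2 fold changes of -0.09 and 0.04 (edgeR adjusted p = 0.437 and 0.733). Of 9 genes listed as ligases for K63-linked chains, TRAF2 rose from 19.5, 18.2 and 17.8 CPM to 26.2, 24.9 and 22.9 CPM (0.41, edgeR adjusted p = 0.000104). RNF8, on the same list, rose as well (0.16, edgeR adjusted p = 0.0388), while UBE2N fell. Whether each listed ligase works with UBE2N was not tested. Of 8 ligases of the RAD6 enzymes, RNF20, which acts on histone H2B, rose (0.26, edgeR adjusted p = 0.000432). Among 13 neddylation and cullin genes CUL4B rose (0.32, edgeR adjusted p = 0.000404), and DCUN1D5 and CUL5 fell (-0.21 and -0.14, edgeR adjusted p = 0.00168 and 0.0362). Without TMM factors the FANCD2 list gave 0 rises and 1 fall, the ligases for K63-linked chains 1 rise and 2 falls, and the neddylation and cullin genes 1 rise and 5 falls.

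Of 10 tested ligase genes of degradation at the endoplasmic reticulum, SYVN1 fell (log2 fold change -0.15, edgeR adjusted p = 0.0335). Of 13 SUMO ligases and proteases, PIAS4 and SENP1 fell (-0.40 and -0.17, edgeR adjusted p = 0.00763 and 0.0302). None of 5 ISG15 genes was called by edgeR or DESeq2, and 2 had an unadjusted p under 0.05, while 3 of the 5 were called lower by edgeR without TMM factors. Of 4 genes for linear ubiquitin chains, OTULIN, the deubiquitinase that cuts them, fell. It stood at 69.4, 67.0 and 64.5 CPM in siNC and at 49.5, 46.6 and 48.6 CPM in siTRAIP, a larger fall than that of any E2 gene (-0.47, SE 0.05, edgeR adjusted p = 1.92e-07). Without TMM factors the falls numbered 2 in the endoplasmic reticulum list, 3 in the SUMO list and 2 in the linear chain list, with no rises.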

How the data were processed

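The 6 libraries were grouped by their titles. Per the labels' protocols, a stranded mRNA kit was used. Trimmomatic 0.36, Subread 1.5.1, featureCounts and GRCh38 appear in the submitters' processing notes. Aligner, annotation release, counting options and use of strand are not given in the sources. The authors deposited raw gene counts and RPKM values, which equal count over length and library total within a relative difference of 1.3e-06. Among counts of 1 to 10, 70.2% were even, against 50.8% of those above 1000, so a pair of reads may have been counted as 2.

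The counts were tested with edgeR 4.0.16 in R 4.3.3 (filterByExpr, TMM, robust quasi-likelihood F-test, 2-sided, Benjamini-Hochberg adjustment over 18685 genes, threshold 0.05). CPM uses TMM-scaled totals. The common biological coefficient of variation was 5.73%. Gene types, pseudogenes and transcripts came from GENCODE v29. Gene overlaps came from the exon coordinates that the authors gave with the counts. The chi-square over genes, divided by its degrees of freedom, between libraries of the same group was 3.3 to 7.96, and 17.3 and 18.0 with siTRAIP replicate 3.

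The E2 genes and gene lists were chosen with earlier results of these data known. Named genes are TRAIP, every E2 gene, and up to 4 called genes per list with the smallest adjusted p plus those against their list's majority. UBE2Q1-AS1, NUDT4, UBA1, UBA6, and the listed genes that were not called were named for context. Results of some genes are not reported here, although they enter the counts over all E2 genes. Alternatives were DESeq2 1.42.0, RLE factors, no TMM factors, 2 other count filters, a replicate block, each library left out, limma 3.58.1 on log2(RPKM + 0.1) and log2(RPKM + 1) and, chosen after seeing the data, counts divided by 2. Same-numbered libraries did not deviate together (correlations of -0.008, -0.018 and 0.001), so numbers were not treated as pairs.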

Additional observations from a re-analysis of the deposited data

How the results depend on the processing

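TRAIP stayed lower and called in all 15 alternatives (log2 fold change -1.21 to -0.99). Of 150 alternative values for the 10 called E2 genes, 121 kept direction and call, 29 lost the call and 0 changed sign. Of 315 values for 21 genes not called, 290 kept direction and stayed uncalled, 8 gained a call and 17 changed sign in 7 genes. The number of genes called was 1521 and 1517 with limma on log2(RPKM + 0.1) and log2(RPKM + 1), and 1480 to 2622 with a library left out, the lowest without siNC replicate 1. E2 rises numbered 0 without TMM factors and 0 with each limma fit, and 0 to 2 with a library left out, with 0 without siNC replicate 2. E2 falls numbered 10 without TMM factors, 9 with each limma fit, and 4 to 7 with a library left out, the lowest without siNC replicate 2. Over all 18685 genes tested, the fit without TMM factors gave 838 rises and 2050 falls. The cell-cycle median was -0.02 without TMM factors and with each limma fit. The median of the other E2 genes was -0.14, -0.14 and -0.11 in those fits and -0.10 to -0.05 with a library left out. In those 3 fits UBE2T and UBE2C stood at -0.02 each and UBE2M at -0.05, -0.06 and -0.05. RPKM and unadjusted totals carry no TMM factor, which moves all genes down. With a library left out, the ranges were -0.05 to 0.03 for UBE2J2, -0.00 to 0.08 for UBE2T, -0.06 to 0.06 for UBE2M, -0.04 to 0.00 for UBE2L3, -0.09 to 0.04 for UBE2W and -0.04 to 0.02 for UBE2R2. With the replicate number as a block, 2145 genes were called, and E2 rises numbered 2 and falls 7, since UBE2Q2 was lost (adjusted p = 0.0504) and no other E2 call changed. The cause of single-library losses was not tested. Effects near 0.15 on the log2 scale sit at the edge of what 3 libraries a group resolve, with standard errors of 0.04 to 0.06 for the called E2 genes.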
